A study of Mus musculus with 4 samples.

Results

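The genes described here are 10 genes of mouse pigmentation: Mitf, Sox10, Kit, Ednrb, Mc1r, Tyr, Tyrp1, Dct, Atrn and Mgrn1. They were taken by name, as genes that mark melanocytes or act in coat colour, because Mitf had been seen to be lower and Mgrn1 higher in miR-205 knockout (KO) cells on these same arrays. All 10 had at least 1 probe set annotated with that symbol alone, out of 18193 genes with such a probe set, and together they had 24. Of these the brightest on average was used for each gene, and the other 14 are given beside it. Since the KO against wild-type (WT) difference helped to choose the genes, that difference is given for them with its standard error and without a test.

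The samples were hair follicle stem cells, which rebuild the follicle at every hair cycle, and were isolated by FACS from skin of C57BL/6 mice at postnatal day 4. 2 arrays carried RNA of miR-205 KO cells and 2 carried RNA of WT cells, each numbered 1 and 2 as biological replicates, and they are called KO 1, KO 2, WT 1 and WT 2 below. The labels give neither the KO allele nor the surface markers of the sort, and do not say whether a replicate was 1 animal or a pool, so the spread between arrays of a group may be partly technical. The treatment text attached to all 4 samples names K14-rtTA, TRE-miR-203 and K14-H2BGFP alleles and a doxycycline injection, and no label says that these apply to the miR-205 samples.

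Hair pigment is made by melanocytes, neural crest derived cells that enter the follicle, and their stem cells lie beside the hair follicle stem cells. The transcription factor MITF specifies the lineage and acts on the genes of the melanin enzymes, SOX10 acts upstream of it, and the receptors KIT and EDNRB carry the signals that melanoblasts need to survive and migrate. The receptor MC1R sets which pigment is made: melanocortin peptides switch it towards dark eumelanin and agouti protein towards yellow pheomelanin. Attractin (ATRN, the mahogany protein) and the ubiquitin ligase mahogunin (MGRN1) are both needed for agouti to act, and mouse mutants of either gene have darker coats. C57BL/6 mice carry the nonagouti allele and have black coats.

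The missing microRNA and the stretches in front of 4 of the genes are shown because they are the sequences through which miR-205 and MITF recognise their targets. The sequences are those of RefSeq on GRCm38.p6, in which the mature miR-205-5p lies at chr1:193507503-193507524, minus strand. Its seed, bases 2 to 8, is in capitals.
mmu-miR-205-5p: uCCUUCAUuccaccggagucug

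For the melanin enzyme genes Tyr, Tyrp1 and Dct and the receptor gene Mc1r, the 250 bases before the annotated start are printed 5′ to 3′ on the gene's strand. Capitals mark each TCATGTG or its reverse complement CACATGA, the core of the M-box that MITF is known to bind in pigment genes. The stretches lie at chr7:87493513-87493762, minus strand for Tyr, at chr4:80833963-80834212, plus strand for Tyrp1, at chr14:118052247-118052496, minus strand for Dct and at chr8:123406832-123407081, plus strand for Mc1r.
Tyr: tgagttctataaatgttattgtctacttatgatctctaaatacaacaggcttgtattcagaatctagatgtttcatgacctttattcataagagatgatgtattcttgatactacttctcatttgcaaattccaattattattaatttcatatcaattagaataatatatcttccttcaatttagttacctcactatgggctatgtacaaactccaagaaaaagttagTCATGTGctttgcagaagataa
Tyrp1: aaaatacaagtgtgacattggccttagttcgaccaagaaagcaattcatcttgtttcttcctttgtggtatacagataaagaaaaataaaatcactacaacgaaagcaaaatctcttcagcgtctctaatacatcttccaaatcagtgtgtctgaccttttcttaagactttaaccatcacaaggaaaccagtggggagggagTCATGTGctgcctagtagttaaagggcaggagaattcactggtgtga
Dct: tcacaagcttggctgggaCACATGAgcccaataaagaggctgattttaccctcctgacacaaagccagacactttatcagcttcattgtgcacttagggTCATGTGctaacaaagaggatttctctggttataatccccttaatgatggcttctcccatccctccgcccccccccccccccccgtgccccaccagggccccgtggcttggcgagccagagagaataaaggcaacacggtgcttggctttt
Mc1r: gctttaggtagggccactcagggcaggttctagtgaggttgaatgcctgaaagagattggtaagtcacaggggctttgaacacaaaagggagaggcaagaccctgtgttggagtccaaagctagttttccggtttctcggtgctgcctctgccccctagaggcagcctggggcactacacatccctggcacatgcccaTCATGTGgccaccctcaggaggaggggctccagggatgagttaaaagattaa

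The first base of TCATGTG lay 22 bases before the start of Tyr, 47 before that of Tyrp1, 151 before that of Dct and 52 before that of Mc1r, and Dct held the reverse complement as well, 232 bases before its start. In windows of 300 bases around the start, searched on both strands, TCATGTG was found in 4 of the 9 pigment genes that have an entry, and in 3.77% of all 32851 entries. The longer TCATGTGCT, looked for after these sequences had been read, was found in the 3 enzyme genes only, against 0.408% of all entries. The E-box CACGTG, which MITF can also bind, was found in the Mgrn1 window, 24 bases before the start, and in 7.15% of all entries. None of these words was found in the windows of Mitf (3 starts), Kit (2 starts), Ednrb or Atrn, and no entry was used for Sox10. A match is a description of the letters and does not show binding in these cells.

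The facts of the whole data set that touch these genes are few. Krt15, Krt14 and Krt5, keratins of the follicle bulge and the basal layer, lay between 13.47 and 14.05 on all 4 arrays on the log2 scale of the table, on which the highest value of any probe set was 14.56. Each was higher on both KO arrays, by 0.24 (SE 0.12), 0.13 (SE 0.05) and 0.20 (SE 0.07). Of 12 follicle stem cell and basal keratinocyte markers, 5 were higher on both KO arrays, against 8.20% of all genes, and limma called none. The stem cell factors Lhx2 and Sox9 differed by 0.07 (SE 0.04) and -0.01 (SE 0.18) between KO and WT, and the surface marker Cd34 by -0.48 (SE 0.86). The host transcript of miR-205, Mir205hg, was at 6.52 and 6.13 in KO cells and 5.81 and 5.30 in WT cells, and since the deleted part is not given it does not check the genotype. The KO and WT arrays also differed in sex-linked RNA: Xist was at 5.26 and 5.45 in KO cells against 13.28 and 13.19 in WT cells, and the Y-linked Eif2s3y at 9.59 and 9.57 against 3.05 and 2.86. Genotype and this difference cannot be told apart on these arrays. Xist and Eif2s3y were also the only genes of 18193 that passed an adjusted p under 0.05 with limma, which is 0.0110% of genes. With any 1 array left out, 0 genes passed.

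Mitf was lower in the KO arrays. Its probe set read 7.62 and 7.60 on KO 1 and KO 2, against 8.02 and 8.13 on WT 1 and WT 2. The groups did not overlap, and the KO arrays were nearly equal. The mean was 7.61 ± 0.016 in KO and 8.08 ± 0.076 in WT cells (log2, SD, n = 2 each), so that KO minus WT was -0.47 with an SE of 0.058, a WT level 1.38 times the KO level. Taken within a number, it was -0.40 for number 1 and -0.53 for number 2. The second Mitf probe set is dim, at 3.85 and 3.54 in KO cells against 4.11 and 3.96 in WT cells. It ran the same way, with a difference of -0.34 and an SE of 0.14.

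Mgrn1 was higher in the KO arrays. Its probe set read 8.08 and 7.96 on KO 1 and KO 2, against 7.35 and 7.10 on WT 1 and WT 2, with no overlap. The mean was 8.02 ± 0.082 in KO and 7.23 ± 0.18 in WT cells (log2, SD, n = 2 each). KO minus WT was thus 0.79 with an SE of 0.12, a KO level 1.73 times the WT level. Taken within a number, it was 0.73 for number 1 and 0.86 for number 2. The other probe sets of Mgrn1 separated the groups less. The brighter of them read 7.08 and 7.56 in KO cells against 6.82 and 7.26 in WT cells, higher in KO within each number by 0.25 and 0.30 but overlapping between the groups. The dimmest read 4.21 and 4.70 in KO cells against 4.48 and 4.62 in WT cells, with a difference of -0.10.

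Mitf and Mgrn1 were the only members whose groups did not overlap, 1 below and 1 above. Over all genes, both KO arrays lay below both WT arrays in 5.70% and above them in 8.20%. As the same contrast helped to choose the genes, nothing is read from these counts.

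**Figure D1:**
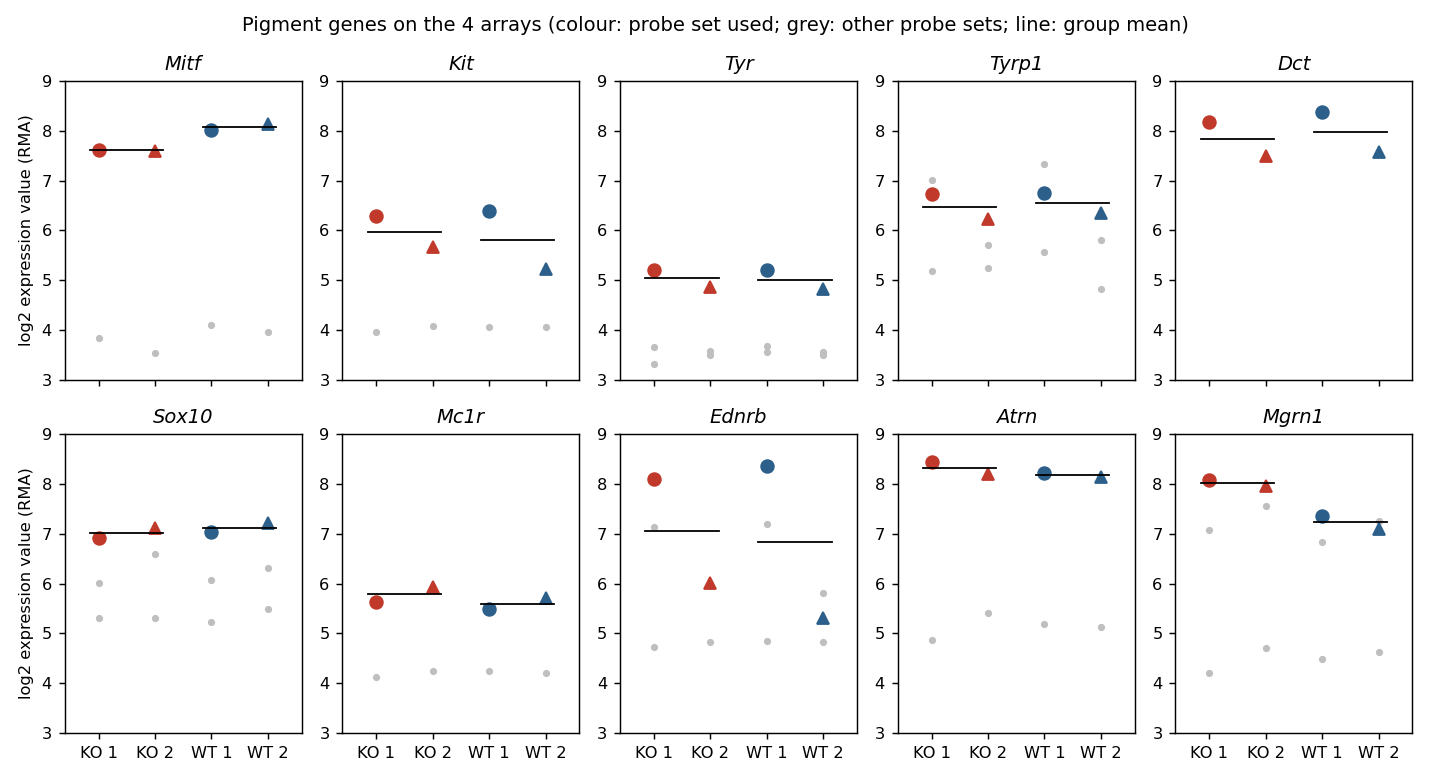
Log2 expression values (RMA) of the 10 pigment genes on the 4 arrays, with KO in red and WT in blue, number 1 as circles, number 2 as triangles, group means as lines and the other probe sets of a gene in grey. Mitf separates the groups downwards in KO and Mgrn1 upwards, while Ednrb, Kit, Dct, Tyrp1 and Tyr stand higher on the number 1 arrays of both groups.

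In the melanin enzyme genes the KO and WT arrays overlapped, and the SE given here includes the shift between the numbers. Dct, whose product dopachrome tautomerase works in eumelanin synthesis and which is an early marker of melanoblasts, read 8.18 and 7.49 on KO 1 and KO 2, against 8.37 and 7.58 on WT 1 and WT 2. The groups overlapped, and the number 1 array was the higher in each. KO minus WT was -0.14 with an SE of 0.43, while number 1 exceeded number 2 by 0.69 in KO cells and by 0.79 in WT cells. Dct is represented by 1 probe set.

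Tyrp1, a melanosomal enzyme that stabilises tyrosinase, showed the same order of arrays. The probe set used read 6.72 and 6.22 in KO cells against 6.75 and 6.36 in WT cells, a difference of -0.08 with an SE of 0.26. A second one, with a wider range, read 7.02 and 5.70 in KO cells against 7.33 and 5.80 in WT cells. In it number 1 exceeded number 2 by 1.32 in KO cells and by 1.53 in WT cells, and KO minus WT was -0.21 with an SE of 0.82. The third read 5.18 and 5.24 in KO cells against 5.57 and 4.82 in WT cells and put the numbers in order in WT cells only.

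Tyr, the gene of tyrosinase, the rate-limiting enzyme of melanin synthesis, was dimmer, with a mean of 5.02 over the arrays, against 6.88 for the mean level of the median gene. It read 5.21 and 4.87 in KO cells against 5.21 and 4.82 in WT cells, the value of KO 1 and WT 1 being the same in the table. KO minus WT was 0.03 with an SE of 0.21. The other probe sets of Tyr lay between 3.31 and 3.68 on all 4 arrays, with differences of -0.01 and -0.12.

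The receptor genes of the melanoblast signals were also higher on the number 1 arrays in the probe sets used. Ednrb, the endothelin receptor, read 8.10 and 6.00 on KO 1 and KO 2, against 8.36 and 5.30 on WT 1 and WT 2. Number 1 exceeded number 2 by 2.10 in KO cells and by 3.06 in WT cells on the log2 scale, and KO minus WT was 0.22 with an SE of 1.5. A second probe set gave 7.14 and 5.95 in KO cells against 7.20 and 5.81 in WT cells, the same order of arrays. The third was flat, between 4.72 and 4.86.

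Kit, the receptor of KIT ligand, which mast cells carry as well, followed the same order at 6.29 and 5.66 in KO cells against 6.39 and 5.22 in WT cells. KO minus WT was 0.17 with an SE of 0.54, and its sign differed between the numbers, -0.09 for number 1 and 0.44 for number 2. Its dimmer probe set was flat, between 3.95 and 4.08.

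Sox10 and Mc1r ran the other way between the numbers, and by less. Sox10 read 6.91 and 7.11 in KO cells against 7.03 and 7.21 in WT cells, so that KO minus WT was -0.11 with an SE of 0.11. It was lower in KO cells within each number, by 0.12 and 0.10, but the groups overlapped. Of its other probe sets, 1 differed by 0.12 and 1 by -0.04. Mc1r read 5.63 and 5.93 in KO cells against 5.49 and 5.70 in WT cells, a difference of 0.18 with an SE of 0.15, and its second probe set differed by -0.04.

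Atrn read 8.44 and 8.20 in KO cells against 8.21 and 8.14 in WT cells. The groups overlapped narrowly, between KO 2 and WT 1, and KO minus WT was 0.14 with an SE of 0.11. The dim second probe set differed by -0.02. The probe sets used for Atrn and Mgrn1 both had a positive difference, as did 9631 of all 18193 genes. Only for Mgrn1, which helped to choose the genes, were the groups apart.

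The lineage genes were divided in direction. Of the 8 genes other than Atrn and Mgrn1, 4 were lower (Mitf, Dct, Tyrp1 and Sox10) and 4 higher in KO cells. Over all 18193 genes, 8195 were lower and 9631 higher. The median difference of the 8 was -0.03, against 0.01 over all genes. Mitf, which helped to choose the genes, is counted among the 8. Apart from Mitf their differences lay between -0.14 and 0.22. Dct (-0.19 and -0.09), Tyrp1 (-0.03 and -0.13) and Sox10 (-0.12 and -0.10) were lower in KO cells within number 1 and within number 2, as Mitf was. Mc1r went the other way, higher in KO cells within both numbers (0.14 and 0.23). Kit (-0.09 and 0.44) and Ednrb (-0.26 and 0.70) changed sign between the numbers, and Tyr differed by 0 and 0.05. The median of the 8 changed sign with single arrays, from -0.34 without WT 2 to 0.18 without KO 2. What most of them shared was the order of the numbers. Both number 1 arrays lay above both number 2 arrays in 5 of the 8, namely Dct, Tyrp1, Tyr, Kit and Ednrb, and in Atrn, against 22.0% of all genes. Both number 2 arrays lay above both number 1 arrays in Sox10 and Mc1r, against 21.7% of all genes. Mitf was in neither class.

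**Figure D2:**
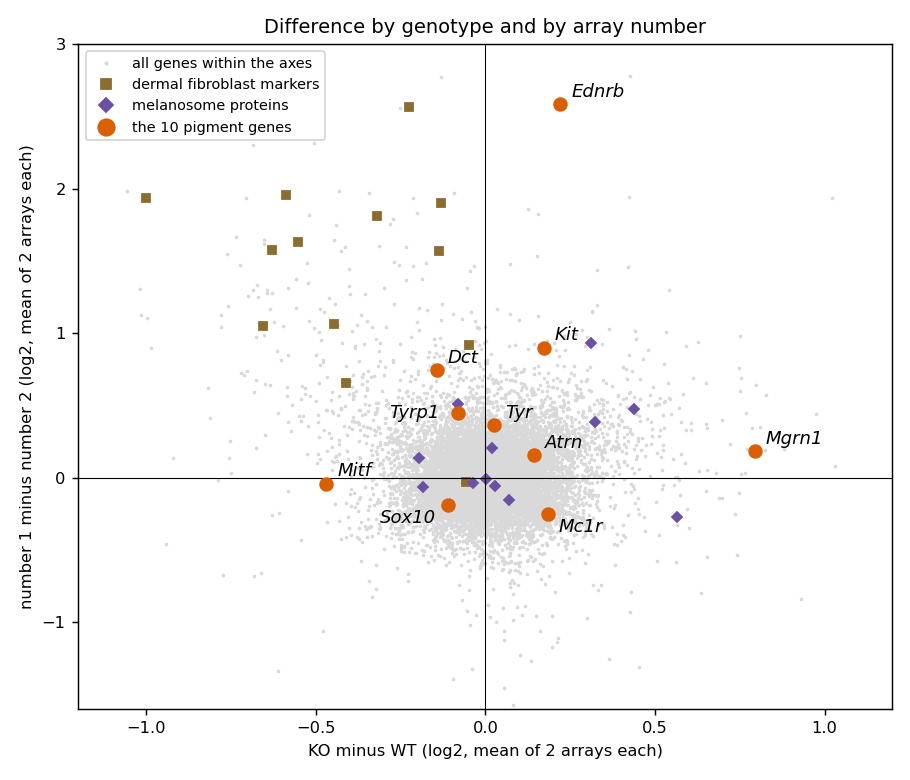
KO minus WT (horizontal, log2) against number 1 minus number 2 (vertical, log2) for the 10 pigment genes (orange), melanosome proteins (purple), dermal fibroblast markers (brown) and all other genes within the axes (grey). Mitf (-0.47) and Mgrn1 (0.79) lie out along the genotype axis, and Ednrb (2.58), Kit (0.90) and Dct (0.74) along the axis of the numbers.

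Dermal fibroblast markers moved with the numbers too. Of 13 dermal fibroblast markers, 12 were higher on both number 1 arrays, and their median value was 9.22 on KO 1, 8.86 on KO 2, 10.77 on WT 1 and 8.40 on WT 2. All 13 had a negative KO minus WT, with a median of -0.41, and limma called none. This direction did not hold within number 2. There all but Fbln1 (-0.11) and Pdgfrb (-0.27) were higher in KO cells, with Col1a1 at 0.54 and Col1a2 at 0.52. Ednrb and Kit had the order of the 4 median values, WT 1 being the highest and WT 2 the lowest. In Dct and Tyrp1 the lowest array was KO 2. The fibroblast genes were furthest apart in WT cells: the collagen gene Col1a2 differed by 1.25 between KO 1 and KO 2 and by 2.55 between WT 1 and WT 2. The receptor genes Pdgfra and Pdgfrb differed by -0.59 (SE 1.19) and -1.0 (SE 1.18) between KO and WT. The ribosomal 18S control at the 5′ end also followed the numbers, at 11.51 and 9.46 in KO cells and 11.59 and 9.40 in WT cells. The control for the 5′ end of beta-actin ran the other way, at 13.62 and 14.03 in KO cells and 13.60 and 13.87 in WT cells, while the one for its 3′ end lay at 14.29 and 14.34 in KO cells and 14.23 and 14.26 in WT cells. The part of the fibroblast signal and of these control RNAs in the order of the pigment genes was not tested. In bulk RNA, fewer cells of a type and less RNA per cell cannot be told apart.

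Markers of the other cells that carry Kit or Sox10 were mostly dim. The 10 mast cell markers, among them Cpa3 (5.81 and 5.60 in KO, 5.82 and 5.60 in WT cells), all lay below the median gene in mean level, with values between 2.99 and 5.86. Mcpt4, a mast cell protease gene, differed by -0.04 (SE 0.05), and Ms4a2, with the largest difference of that list, by -0.31 (SE 0.21). The 7 Schwann cell markers measured had a median difference of -0.07, and their values ran from 3.40 to 9.19, the highest being Pmp22, which fibroblasts also express, and the largest difference that of Gap43 (-0.37, SE 0.31). Endothelial markers (9 genes) had a median difference of -0.14, with Pecam1 at -0.10 (SE 0.05), Kdr at -0.24 (SE 0.09) and Tek at -0.39 (SE 0.64). Dermal papilla markers (8 genes), from the cells that make agouti in agouti mice, had a median of -0.08. Of these, Alx4 was at 0.05 (SE 0.13), Fgf10 at -0.27 (SE 0.07) and Hhip at -0.68 (SE 0.43). Both KO arrays lay below both WT arrays in 3 endothelial and 2 dermal papilla markers, against 5.70% of all genes. They lay above in 0 of either list, against 8.20% of all genes. None of these lists had a gene called by limma, and Egfl7 and Fgf10 were the genes with an unadjusted p under 0.05. For comparison, 12 genes of other organs such as albumin, insulin and protamine had values between 3.08 and 7.57. A value in this range does not by itself show expression. The probe sets used for Kit, Tyr, Tyrp1, Mc1r and Sox10 lay within it on every array. The table holds no detection calls.

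Melanosome proteins, a list drawn up by function, had no member called in either direction (0 of 12, limma, and 0 at an unadjusted p under 0.05), with a median KO minus WT of 0.02. Pmel, which builds the fibrils of the melanosome, read 7.79 and 7.34 in KO cells against 7.93 and 7.36 in WT cells, a difference of -0.08 with an SE of 0.30. Mlana read 6.23 and 5.66 in KO cells against 6.28 and 4.99 in WT cells. Both thus had the order of the numbers seen in Dct, as did Gpr143, the receptor mutated in ocular albinism, at 4.44 and 4.26 in KO cells against 4.44 and 4.22 in WT cells. The transporter genes Oca2 (-0.20) and Slc45a2 (0.07) did not. The largest difference of the list was that of Rab27a, a GTPase that links melanosomes to the actin motor, at 5.38 and 5.81 in KO cells against 4.97 and 5.08 in WT cells (0.57, SE 0.18, limma adjusted p = 1). Its other, dimmer probe sets differed by -0.02, 0.17 and -0.04.

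**Figure D3:**
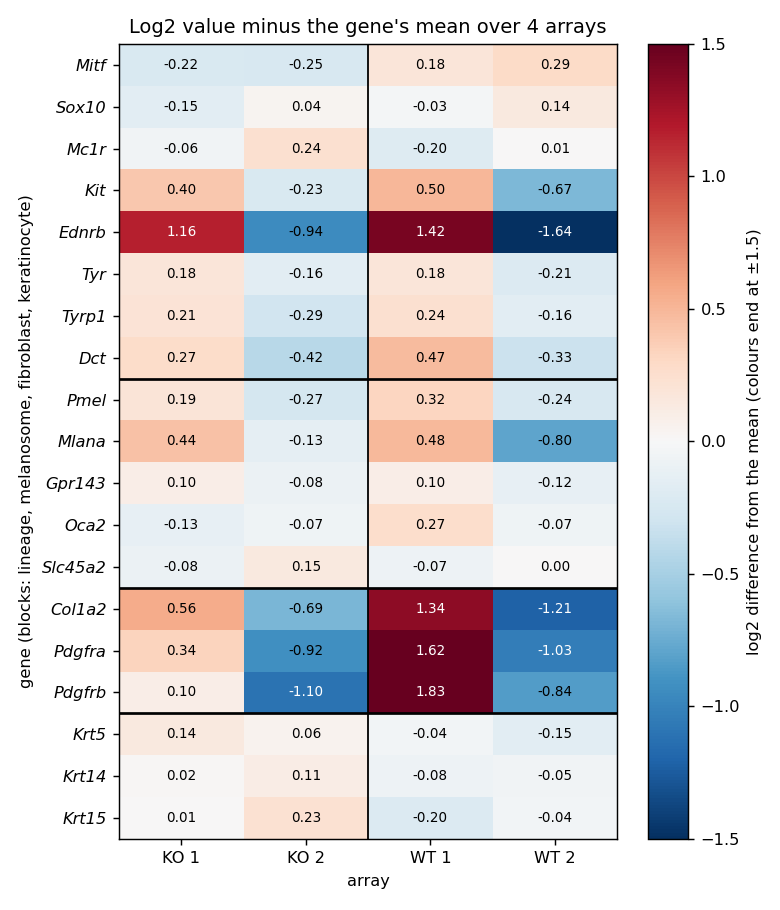
Log2 value of each gene on KO 1, KO 2, WT 1 and WT 2 minus its mean over the 4 arrays, in blocks of melanocyte lineage, melanosome, dermal fibroblast and keratinocyte genes. Kit, Ednrb, Tyr, Tyrp1, Dct, Pmel and Mlana are above their mean on KO 1 and WT 1 and below it on KO 2 and WT 2, and Mitf is below its mean on both KO arrays.

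Genes of melanosome transport and biogenesis, which build lysosome-related organelles in many cell types, had a median difference of 0.01 (19 genes) and none called. In 6 of the 19 both KO arrays lay above both WT arrays and in 0 below, against 8.20% and 5.70% of all genes. The myosin gene Myo5a differed by -0.02 (SE 0.08), Rab32 by 0.01 (SE 0.04), the adaptor subunit gene Ap3b1 by -0.02 (SE 0.05) and Hps1 by -0.37 (SE 0.23), the last through KO 1, at 7.87 against 8.38 on KO 2 and 8.61 and 8.38 on WT 1 and WT 2. The other, dimmer probe sets of Hps1 differed by 0.04, -0.07 and -0.20. Hps6 and Bloc1s6, chosen after their values were seen, were the 2 genes with an unadjusted p under 0.05. Hps6, a subunit of the BLOC-2 complex, read 5.79 and 5.70 in KO cells against 5.50 and 5.48 in WT cells (0.25, limma adjusted p = 1). Bloc1s6, a subunit of BLOC-1, read 8.92 and 8.73 in KO cells against 8.48 and 8.57 in WT cells (0.30, limma adjusted p = 1).

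Signals of melanocyte specification and survival, many of which keratinocytes make, had a median difference of -0.01 (15 genes) and none called. Kitl, the ligand of KIT, read 10.22 and 9.88 in KO cells against 10.06 and 10.48 in WT cells, a difference of -0.22 with an SE of 0.22. The ligand genes Edn3 and Edn1 differed by -0.13 (SE 0.22) and -0.04 (SE 0.06). Kitl had the order of Kit in KO cells only, and was highest on WT 2, where Kit was lowest. Its other, dimmer probe sets were all higher on both number 2 arrays. Edn3 was highest on the number 2 arrays, at 7.24 in KO and 7.44 in WT cells, and so did not follow the order of Ednrb. Edn1 did, within a narrow range, at 9.31 and 9.29 in KO cells against 9.40 and 9.29 in WT cells. Snai2, a transcription factor of the neural crest and of basal keratinocytes, had the largest difference of the list, with 12.21 and 11.76 in KO cells against 11.76 and 11.32 in WT cells (0.44, SE 0.26, limma adjusted p = 1), and its second probe set differed by 0.37. The lineage factor Pax3 (-0.01, SE 0.04) and the WNT effector Lef1 (0.21, SE 0.26) overlapped between the groups.

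Genes of pigment type switching and relatives of ATRN and MGRN1 had a median difference of -0.06 (11 genes) and none called. The agouti gene (symbol a) was dim, at 4.62 and 4.91 in KO cells against 4.61 and 4.77 in WT cells. Pomc, the precursor gene of the melanocortins, was at 6.75 and 6.90 in KO cells and 6.83 on both WT arrays. Corin, a protease of the dermal papilla that limits agouti action, had the largest difference, -0.30 (SE 0.41), and was dim. In the probe sets used, Rnf157, the relative of Mgrn1, differed by -0.08 (SE 0.09) and Atrnl1, the relative of Atrn, by -0.11 (SE 0.14). The dimmer probe sets of Rnf157 differed by 0.03 to 0.15, and in 1 of them both KO arrays lay above both WT arrays, at 4.43 and 4.63 in KO cells against 4.41 and 4.37 in WT cells. Tsg101, a sorting protein that MGRN1 ubiquitinates, was at 9.57 and 9.51 in KO cells and 9.51 on both WT arrays. Among the relatives of Mitf, Tfe3 and Tfeb differed by 0.02 (SE 0.14) and 0.03 (SE 0.08), and Tfec, a dim probe set, by -0.17 (SE 0.12).

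Over these 5 lists, 60 genes were measured and limma called none at an adjusted p under 0.05, every adjusted p being 1. The 2 genes at an unadjusted p under 0.05 stand against 1.88% of all genes.

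**Figure D4:**
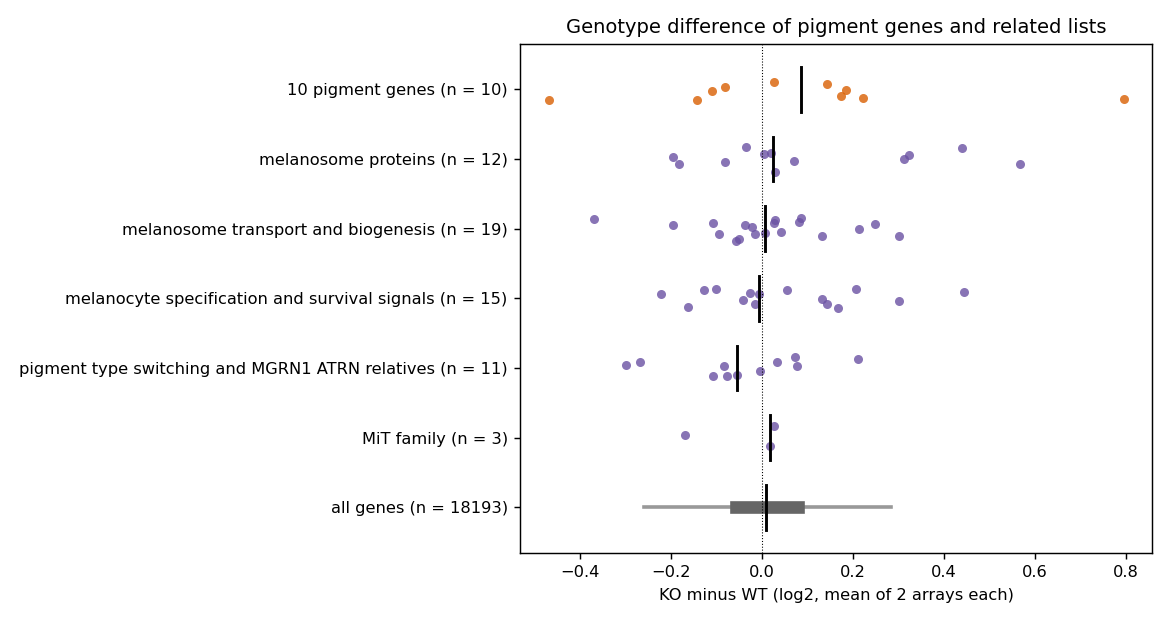
KO minus WT (log2) of each gene of the 10 pigment genes and of 5 related lists, with the median of each as a black line, and for all 18193 genes the median, the middle 50% (dark bar) and the middle 95% (thin bar, -0.26 to 0.28). The medians of the lists lie between -0.06 and 0.08.

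Genes whose 4 values most resembled those of Mitf and Mgrn1 were picked by the Euclidean distance between values centred on each gene's mean, among genes above the median level. Nearest to Mitf were Hypk (distance 0.14), Wsb1 (0.15), Rps4l (0.18) and Slco4a1 (0.19), none of them a gene of pigmentation. Nearest to Mgrn1 were Npl (0.093), an N-acetylneuraminate lyase, the aldehyde dehydrogenase Aldh3a2 (0.10), the CMP-sialic acid transporter Slc35a1 (0.10) and the riboflavin kinase Rfk (0.15). Npl read 7.40 and 7.40 in KO cells against 6.77 and 6.46 in WT cells. With 4 arrays this likeness describes these arrays only.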

How the data were processed

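RNA of 2 KO and 2 WT samples was measured on Affymetrix mouse arrays. The deposited table holds log2 expression values that the authors computed by RMA (the submitters' processing notes name the tool without a version); no genome build is named and no detection calls are given. RMA corrects background, sets all arrays to 1 distribution and summarises each probe set, which compresses differences of dim probe sets. In 47.1% of the 45101 probe sets at least 2 arrays had exactly equal values as deposited, with no tolerance. Genes were named from GEO's platform annotation, with symbols updated through the GRCm38.p6 RefSeq table (34741 of 34945 probe sets with 1 symbol matched).

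KO was compared with WT across all 18193 genes with the moderated test of limma (version 3.58.1, R version 4.3.3, two-sided, without covariates, p-values adjusted after Benjamini-Hochberg, threshold 0.05). On simulated data with independent noise on each array, only its mean estimates of planted differences were checked. The shared deviation of same-numbered arrays was not simulated. SE is the moderated standard error; for a further probe set it comes from the fit of every probe set by itself. The members and lists were chosen with earlier results of these data known. The order of the array numbers was examined after the values were seen. Genes named were the members, list genes marked by role, the gene of largest difference of each list, and the nearest profiles. The number of arrays limits the precision. The alternatives were quantile normalization again, median centring, only genes above the median level, all probe sets averaged per gene or fitted singly, eBayes with trend and robust settings, a replicate block, and leaving out each array.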

Additional observations from a re-analysis of the deposited data

How the results depend on the processing

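The precision is limited by 2 arrays per group, by dim probe sets without detection calls, and by the sex-linked difference between the genotypes. limma called 2 genes, and 1 with the filter on dim genes, 0 with the mean of probe sets, 0 with every probe set by itself and 0 with any 1 array left out. With a replicate block it called 0; same-numbered arrays deviated together (r = 0.56 across genes), but the labels say nothing of a shared litter or day. It called 3 with either other normalization and 2 with eBayes trend and robust settings. Over 9 alternatives Mitf ran from -0.52 to -0.40 and Mgrn1 from 0.33 to 0.92, lowest with the mean of its probe sets. Both helped to choose the genes by their direction. As their groups did not overlap, leaving out 1 array could not change the sign. The replicate block and the filter on dim genes leave the difference as it is. Nothing is therefore read from the kept direction of Mitf and Mgrn1. Without single arrays Sox10 (-0.21 to -0.011), Mc1r (0.034 to 0.34) and Atrn (0.021 to 0.26) kept their direction. In the same fits Kit (-0.41 to 0.76), Dct (-0.54 to 0.25), Tyrp1 (-0.33 to 0.17), Tyr (-0.17 to 0.22) and Ednrb (-1.31 to 1.75) changed sign. With the replicate block the SE was 0.056 for Dct (-0.14), 0.045 for Sox10 (-0.11) and 0.056 for Tyrp1 (-0.082). For the genes with a positive difference it was 0.054 for Mc1r (0.18), 0.048 for Tyr (0.026), 0.18 for Kit (0.17) and 0.31 for Ednrb (0.22). Without single arrays the median over the 10 members ran from -0.22 to 0.20, over the 8 lineage genes from -0.34 to 0.18, over melanosome proteins from -0.011 to 0.082, over melanosome transport from -0.0085 to 0.067, over specification signals from 0.0043 to 0.086 and over pigment type switching from -0.056 to -0.0039. With the filter on dim genes the median was 0.16 for melanosome proteins (4 genes left), 0.13 for specification signals (11 left) and 0.032 for pigment type switching (3 left). With the mean of probe sets it was 0.069 for specification signals and -0.039 for pigment type switching. With 1 array left out, number 1 and number 2 were unequally represented in KO and WT, so their difference enters KO minus WT. In Dct, number 1 exceeded number 2 by 0.74 on average. Its KO minus WT was -0.54 without WT 2 and 0.25 without WT 1, and -0.19 and -0.09 within the numbers. The cause of the shifts with the filter and with the mean of probe sets was not tested.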
